A study of Mus musculus with 13 samples.

Results

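Setdb1, Trim28, Atf7ip, Fam208a, Mphosph8, Pphln1, Morc2a, Ehmt1 and Ehmt2 encode the proteins that place or read methyl marks on lysine 9 of histone H3 (H3K9) at repeats, or that work with those that do. They were chosen by name, and these 9 genes were followed among the 54532 genes of the count table in the mouse melanoma line YUMM1.7, genotype WT in the labels. The cells received the vehicle DMSO, the A-to-I RNA editing inhibitor ADAR1i-124 at 10 μM for 12 h, the DNA methyltransferase inhibitor 5-Aza-CdR at 1 μM for 72 h, or both. Each condition had 1 library, 13 in all. Total RNA gave 4 of them, J2 (an antibody to double-stranded RNA) pulled down the RNA of 4, Z22 (an antibody to Z-form nucleic acid) that of another 4, and IgG, the control of the precipitation, that of 1. In the combination ADAR1i-124 followed 5-Aza-CdR for another 12 h, at 10 μM where editing at J2 and Z22 targets is described, though the labels of these libraries give no dose. The treatment behind IgG was not stated in the sources used here. With 1 library per condition, treatments were compared as values without a test. The 95% intervals given are Wilson intervals that cover counting error only, since the reads carry no molecular identifiers and may repeat a molecule.

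SETDB1 is the methyltransferase that places the trimethyl mark on H3K9 at endogenous retroviruses, and ATF7IP is its nuclear partner, which stabilises it. TRIM28 (KAP1) is the corepressor that KRAB zinc finger proteins bring to their target repeats, where it recruits SETDB1. The HUSH complex consists of TASOR (Fam208a), MPP8 (Mphosph8), which reads the mark, and periphilin (Pphln1). HUSH works with SETDB1 and with the ATPase MORC2 (Morc2a) and is known for silencing young LINE-1 elements and retroviral insertions. EHMT1 (GLP) and EHMT2 (G9a) form a heterodimer that places the mono- and dimethyl marks on H3K9, and DNA methylation acts on the same repeats.

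A few facts of the libraries bear on all values. Total counts were 17015425 to 34571822 in the 3 total RNA libraries used and 8167960 to 15324595 in the 9 precipitated ones. The total RNA library of the combination held 1245894 counts and was left out, since the 100 protein-coding genes highest in DMSO had a median ratio to DMSO of 0.00570 there and counts sat with genes on the opposite strand. Of its 393 counts for the 9 genes, 363 fell on the 5 that share exon bases with a gene on the other strand. Z22 DMSO stood apart. Its rank correlation with its most similar library was 0.797, against 0.899 to 0.978 for each other library, and 34.9% of its counts came from the rRNA-overlapping gene Gm42418. Differences from DMSO in the precipitates did not follow those in total RNA across 8889 genes, with a Spearman rho of 0.0628 between total RNA and J2 after 5-Aza-CdR and 0.0639 after ADAR1i-124, and -0.074 and -0.088 between total RNA and Z22. The difference after 5-Aza-CdR in total RNA had a rho of -0.511 with that after ADAR1i-124 in J2. Total RNA of DMSO was most similar to IgG, at 0.919, and J2 DMSO to J2 of the combination, at 0.918. Whether the precipitated RNA came from the same cultures as the total RNA was not stated, and whether labels were exchanged was not tested, so each treatment value of a precipitate below is that of the library with this label. Adar stood at 233 CPM (a gene's counts per 1000000 counts of the table) in DMSO and 58.9 in ADAR1i-124 in total RNA, and at 176 and 83.3 in J2. The 11 germline genes listed as silenced by DNA or H3K9 methylation summed to 7.46 to 53.1 CPM in the 5 libraries labelled 5-Aza-CdR and to 0.136 to 3.94 in the other 7. Of the 8 melanocyte lineage markers only Mitf passed 1 CPM in total RNA, at 20.3 to 33.1 CPM, and Tyr and Tyrp1 were at 0 counts in all 12 libraries. The 4 fibroblast markers summed to 69.7 CPM in total RNA of DMSO, 358 of ADAR1i-124 and 668 of 5-Aza-CdR, all 4 past 2-fold in the last. The order was the opposite in the precipitates, at 413, 27.4 and 23.1 CPM in J2 and 1132, 129 and 27.7 in Z22. In the same order the 6 leukocyte markers summed to 8.64, 20.5 and 77.7 CPM, nearly all of it Cd68, with Cd3e at 0, and the 3 endothelial markers to 4.06, 18.4 and 83.0, nearly all of it Cdh5. In J2 these sums were 60.2, 7.09 and 18.3 CPM for leukocyte and 8.54, 3.75 and 61.7 for endothelial markers, and in Z22 15.7, 13.3 and 41.6, and 7.33, 4.36 and 32.2. The 4 keratinocyte markers summed to 0.908 to 1.65 CPM in total RNA, with Krt1 and Krt14 at 0 there, and to 0.458 to 2.41 in the precipitates. The part of these shifts in the results was not tested, and in such bulk RNA fewer cells of a type and less RNA per cell cannot be told apart.

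All 9 genes were well detected in the 12 libraries, with 89 to 13625 counts each. Per length, Trim28 was the most abundant in each of the 3 total RNA libraries. The per-length level is the count per kb of merged exons, scaled to the same sum over all genes in each library, as for TPM. In DMSO, Trim28 stood at 261 (interval 254 to 269), higher than 96.0% of genes that averaged 1 CPM or more. Pphln1 followed at 85.2, Morc2a at 76.6 and Ehmt2 at 65.5, each with an interval apart from its neighbours. Mphosph8 at 49.6 and Setdb1 at 45.5 had overlapping intervals, as did Setdb1 and Ehmt1 at 45.5, and Fam208a at 30.9 and Atf7ip at 28.8. Of the components of HUSH, Pphln1 thus stood above Mphosph8 and Fam208a in DMSO. The order below Pphln1 rests on the gene models. The merged exons of Atf7ip span 20726 bases over 12 annotated transcripts, and with the length of its longest transcript, 8059 bases, Atf7ip stood 5th of 9 in DMSO at 56.7. With longest transcripts the intervals of Ehmt2 and Morc2a overlapped, as did those of Ehmt1 and Mphosph8, Mphosph8 and Fam208a, and Fam208a and Setdb1.

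**Figure D1:**
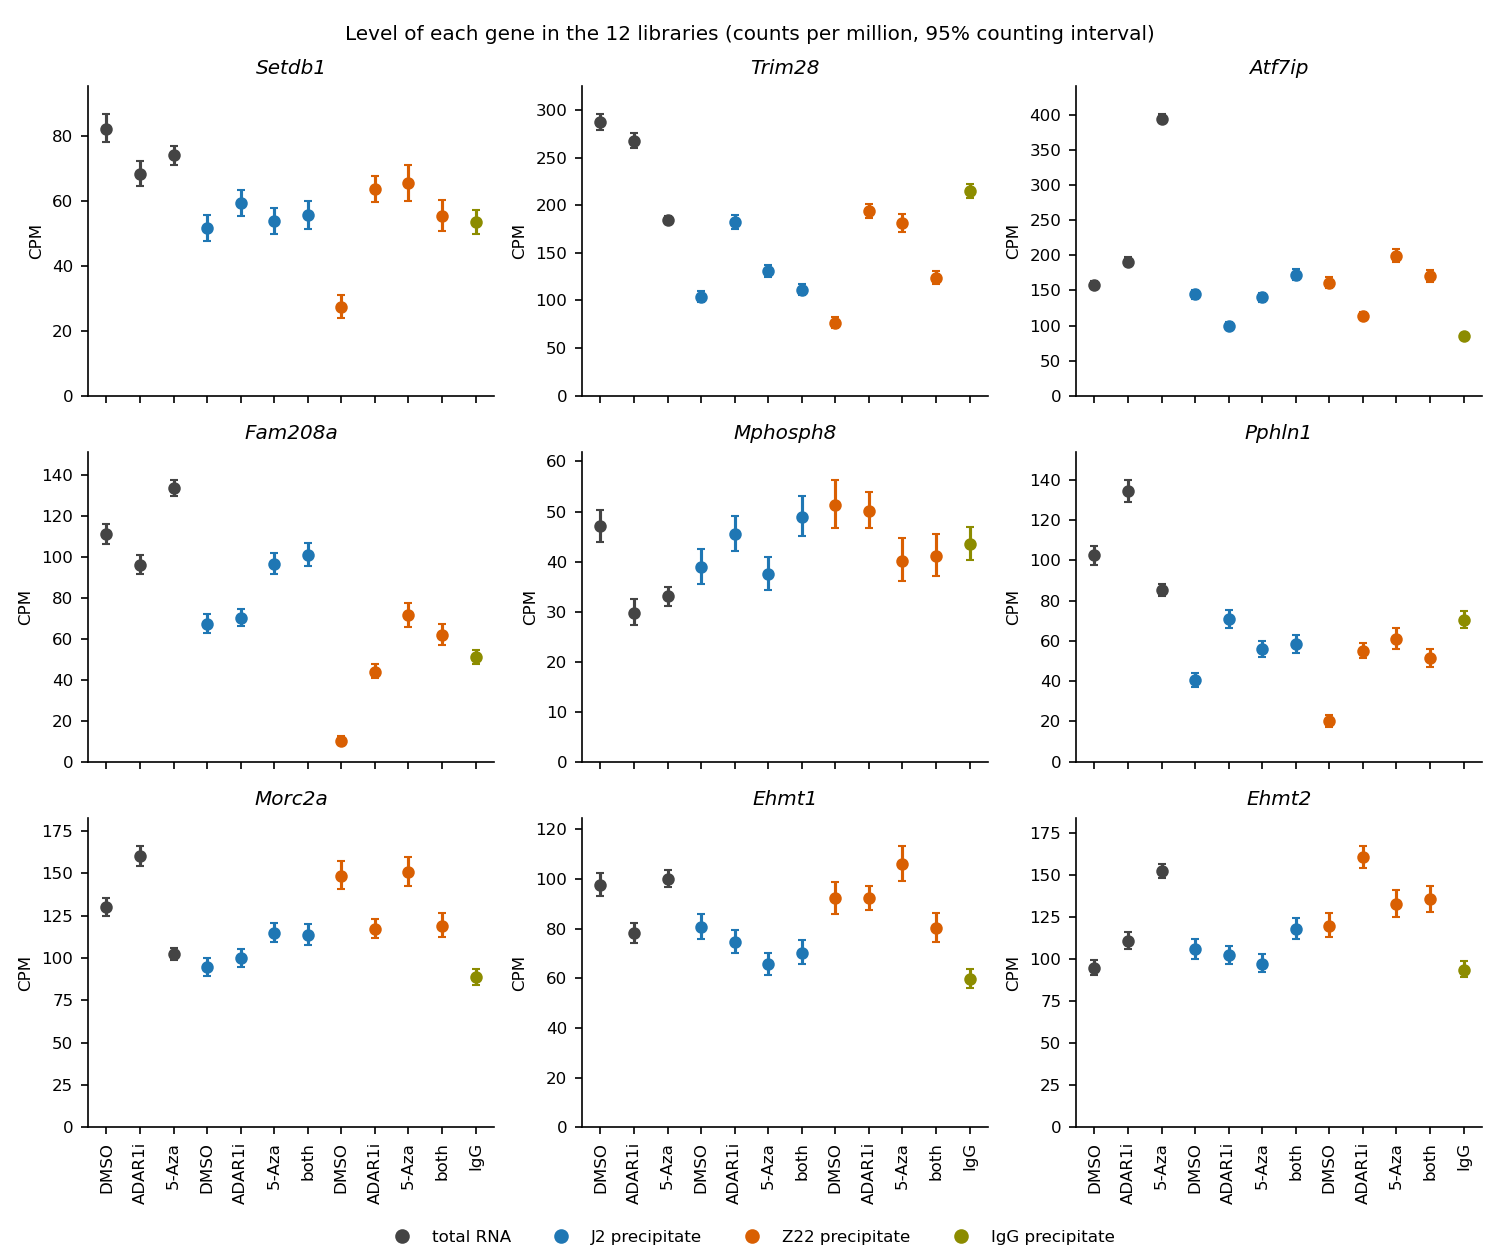
CPM of each of the 9 genes (y axis, from 0) in 3 total RNA, 4 J2, 4 Z22 and 1 IgG libraries (x axis), with 95% Wilson intervals of the count. Atf7ip is highest in total RNA after 5-Aza-CdR at 394 CPM, and Fam208a is lowest in Z22 DMSO at 10.2 CPM.

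In total RNA, Atf7ip alone among the 9 genes was past 2-fold after 5-Aza-CdR, and it was higher. Atf7ip had 158 CPM (152 to 164) in DMSO, 191 (185 to 198) in ADAR1i-124 and 394 (388 to 401) in 5-Aza-CdR. It was thus 2.49-fold higher after 5-Aza-CdR, a log2 difference of 1.32 (1.26 to 1.38). Of all 14391 genes that averaged 1 CPM or more in the 2 libraries, 26% were past 2-fold in either direction, beside 1 of the 9. That count is too small to read as a difference in share, and the background includes genes at lower levels than the 9. The 9 genes had a median log2 difference of -0.15, against 0.06 for all genes, and 3 lay above that median and 6 below it.

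The promoters of the 3 genes with the largest log2 differences in that comparison are shown because 5-Aza-CdR acts on methylation of CG dinucleotides. They are 300-base RefSeq windows around the annotated start in GRCm38.p6, with each CG in capitals. The windows of Atf7ip and Trim28 lie inside the gene models used for the counts, which start at 136506167 and 12999114. CG reads the same on both strands, and methylation was not measured here.
Atf7ip, chr6:136518601-136518900, plus strand: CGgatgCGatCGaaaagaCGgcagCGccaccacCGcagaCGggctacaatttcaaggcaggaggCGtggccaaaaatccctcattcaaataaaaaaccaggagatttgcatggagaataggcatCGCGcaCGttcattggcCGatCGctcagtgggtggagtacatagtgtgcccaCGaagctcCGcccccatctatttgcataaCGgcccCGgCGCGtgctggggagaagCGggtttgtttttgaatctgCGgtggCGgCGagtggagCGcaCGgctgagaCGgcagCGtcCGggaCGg
Ehmt2, chr17:34898224-34898523, plus strand: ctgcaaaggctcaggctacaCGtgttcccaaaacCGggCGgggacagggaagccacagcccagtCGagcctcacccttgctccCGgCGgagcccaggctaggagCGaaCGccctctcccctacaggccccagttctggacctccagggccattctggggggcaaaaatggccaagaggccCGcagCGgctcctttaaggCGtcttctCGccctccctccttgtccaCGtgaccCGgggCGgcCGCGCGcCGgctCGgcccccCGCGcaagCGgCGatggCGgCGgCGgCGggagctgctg
Trim28, chr7:13023902-13024201, plus strand: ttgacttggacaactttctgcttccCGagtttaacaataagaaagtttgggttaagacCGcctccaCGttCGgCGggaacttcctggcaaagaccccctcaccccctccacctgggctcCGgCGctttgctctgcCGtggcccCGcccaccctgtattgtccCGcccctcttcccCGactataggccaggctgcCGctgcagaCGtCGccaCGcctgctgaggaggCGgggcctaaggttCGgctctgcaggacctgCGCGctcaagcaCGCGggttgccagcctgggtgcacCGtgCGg
The window of Atf7ip held 29 CG, and 12.9% of the 32851 promoter windows held as many or more. The printed window of Ehmt2, at the start of the gene model, held 28 CG, a number reached by 14.2% of windows, and a second RefSeq start of Ehmt2 held 40, reached by 3.91%, while the window of Trim28 held 23, reached by 21.5%. All 3 windows were thus above the median window, which held 7 CG. Atf7ip and Ehmt2 were higher after 5-Aza-CdR and Trim28 was lower, and the part of CG content in these differences was not tested. All 9 genes matched a window (Fam208a under its RefSeq symbol Tasor), 12 windows in all. They held 15 to 53 CG except for a second start of Morc2a with 0.

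Atf7ip lies on chromosome 6 at 136506167 to 136610862 on the plus strand (GRCm38, GENCODE M21). Soft-masked repeat bases made up 28.5% of its merged exons, the largest share of the 9 genes and above that of 97.1% of expressed protein-coding genes, whose median was 10.9%. Counts per gene do not tell spliced from intron-keeping transcripts. Gm44140, a noncoding RNA gene on the other strand, shares 83 exon bases with Atf7ip and had 0 counts in total RNA of DMSO and of 5-Aza-CdR. The precipitates of the same label did not hold Atf7ip past 2-fold. J2 held 144 CPM in DMSO, 99.5 in ADAR1i-124, 140.4 in 5-Aza-CdR and 172 in the combination, and the J2 library of 5-Aza-CdR was 0.973-fold its DMSO library, a log2 difference of -0.04 (-0.13 to 0.05). Z22 held 161, 113, 199 and 170.1 CPM in the same order. IgG held 84.9 CPM, the lowest of the 12.

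SETDB1 and TRIM28 stayed within 2-fold in total RNA. Setdb1, on chromosome 3 at 95323525 to 95357202 on the minus strand, had 82.5 CPM (78.3 to 86.9) in DMSO, 68.3 (64.6 to 72.3) in ADAR1i-124 and 74.2 (71.3 to 77.1) in 5-Aza-CdR. Both treated libraries lay below the DMSO interval, at 0.830-fold and 0.900-fold. J2 held 51.6 CPM in its DMSO library, 59.4 after ADAR1i-124, 53.8 after 5-Aza-CdR and 55.7 after both, the order kept for the 4 values of each antibody from here on. The J2 library furthest from DMSO was that of ADAR1i-124, at 1.15-fold. Z22 held 27.4, 63.7, 65.5 and 55.4 CPM, low in DMSO only, and IgG held 53.5. Setdb1 shares 75 exon bases with Cers2 and 249 with Gm37500, both on the other strand.

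Trim28, on chromosome 7 at 12999114 to 13031035 on the plus strand, had 287 CPM (279 to 295) in DMSO, 268 (260 to 275) in ADAR1i-124 and 184 (180.0 to 189) in 5-Aza-CdR. The 5-Aza-CdR library was 0.643-fold that of DMSO, the lowest ratio of the 9. J2 held 104 CPM in DMSO, 182 in ADAR1i-124, 131 in 5-Aza-CdR and 111 in the combination. The order of DMSO and 5-Aza-CdR was therefore the opposite of that in total RNA, with a log2 difference of 0.33 (0.23 to 0.44) in J2 against -0.64 (-0.69 to -0.59). Z22 held 76.5, 194, 181 and 124 CPM. IgG held 215 CPM, more than any of the 8 antibody libraries.

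Of the HUSH genes, none passed 2-fold in total RNA, and the 3 components did not share a direction. Fam208a, which encodes the scaffold TASOR, lies on chromosome 14 at 27428834 to 27483555 on the plus strand. It had 111 CPM (106 to 116) in DMSO, 96.3 (91.8 to 101) in ADAR1i-124 and 134 (130.0 to 138) in 5-Aza-CdR. J2 held 67.4, 70.4, 96.7 and 101 CPM, higher in both 5-Aza-CdR libraries than in the other 2. Z22 held 10.2, 44.0, 71.6 and 61.8 CPM, with the DMSO library far below the rest at 89 counts. IgG held 51.1 CPM. Fam208a shares 1763 exon bases with Ccdc66 on the other strand, so its counts depend on the strand setting, which was not given in the sources used here.

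Mphosph8, the reader subunit, lies on chromosome 14 at 56668248 to 56697430 on the plus strand. It had 47.0 CPM (43.9 to 50.4) in DMSO, 29.8 (27.4 to 32.5) in ADAR1i-124 and 33.0 (31.2 to 35.005) in 5-Aza-CdR. Both treated libraries lay below the DMSO interval, at 0.638-fold and 0.706-fold. The first was the lowest ratio of the 9 after ADAR1i-124. By library totals the precipitates held it in a narrow range, with J2 at 38.8, 45.4, 37.4 and 48.9 CPM, Z22 at 51.3, 50.2, 40.2 and 41.1, and IgG at 43.5. It shares 384 exon bases with Gm16973 on the other strand.

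Pphln1, which encodes periphilin, lies on chromosome 15 at 93398350 to 93491510 on the plus strand. It had 102 CPM (97.7 to 107) in DMSO, 134 (129 to 140) in ADAR1i-124 and 85.1 (82.1 to 88.2) in 5-Aza-CdR, so that the 2 treatments lay on opposite sides of DMSO. J2 held 40.4, 70.8, 55.9 and 58.2 CPM, with each treated library above DMSO. Z22 held 19.9, 55.2, 60.8 and 51.3 CPM and was lowest in DMSO as well, while IgG held 70.5. Morc2a, the ATPase that works with HUSH, lies on chromosome 11 at 3649191 to 3690477 on the plus strand. It followed the same order as Pphln1 in total RNA, with 130.1 CPM (125 to 136) in DMSO, 160.3 (154 to 166) in ADAR1i-124 and 102 (99.1 to 106) in 5-Aza-CdR. J2 held 94.6, 99.96, 115 and 114 CPM, Z22 held 149, 117, 151 and 119, and IgG held 88.6. Morc2a shares 483 exon bases with Tug1 on the other strand.

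The EHMT pair lay on opposite sides of DMSO after ADAR1i-124, each within 2-fold. Ehmt1, on chromosome 2 at 24789928 to 24919614 on the minus strand, had 97.6 CPM (93.0 to 102) in DMSO, 78.0 (74.0 to 82.3) in ADAR1i-124 and 100.02 (96.7 to 103) in 5-Aza-CdR. The intervals of DMSO and 5-Aza-CdR overlapped. J2 held 80.8, 74.7, 65.6 and 70.4 CPM, Z22 held 92.1, 92.1, 106 and 80.4, and IgG held 59.8. Ehmt1 shares 21 exon bases with Gm37139 on the same strand, which had 75 counts in DMSO. Ehmt2, on chromosome 17 at 34898469 to 34914052 on the plus strand, had 95.03 CPM (90.5 to 99.8) in DMSO, 111 (106 to 116) in ADAR1i-124 and 153 (149 to 157) in 5-Aza-CdR. Its 1.60-fold higher level after 5-Aza-CdR was next to that of Atf7ip among the 9. J2 held 106, 102, 97.5 and 118 CPM, Z22 held 120.1, 161, 133 and 136, and IgG held 93.9. The J2 library of 5-Aza-CdR lay below that of DMSO, at 0.919-fold.

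After ADAR1i-124, none of the 9 genes was past 2-fold in total RNA, against 16.4% of 13693 genes. Log2 differences ran from -0.65 for Mphosph8 to 0.39 for Pphln1, with a median of -0.10 against -0.09 for all genes. In J2, none of the 9 was past 2-fold after ADAR1i-124, 5-Aza-CdR or the combination, where 18.2%, 14.6% and 12.1% of genes were. Trim28 at 1.75-fold and Pphln1 at 1.74-fold after ADAR1i-124 were the furthest from DMSO in J2. The 3 J2 comparisons share their DMSO library, so that a low or high value in it enters all of them.

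In Z22 the comparison rests on the DMSO library that stood apart. As scaled by library totals, 4, 4 and 3 of the 9 genes were past 2-fold after ADAR1i-124, 5-Aza-CdR and the combination, all of them higher, against 48%, 56.2% and 48.5% of all genes. The median of all genes was itself shifted by 0.81, 1.06 and 0.82 on the log2 scale. Of all genes past 2-fold, 89.3%, 92.7% and 89.6% were higher by library totals, and 62.8%, 60.1% and 61.2% with TMM factors, a scaling by edgeR that sets the bulk of genes equal. Of the 9 genes, Fam208a alone was past 2-fold and higher with TMM factors, at 1.40, 1.82 and 1.84 on the log2 scale. Past 2-fold and lower were then Atf7ip (-1.18) and Morc2a (-1.02) after ADAR1i-124, Mphosph8 (-1.31) after 5-Aza-CdR, and Mphosph8 (-1.04) and Morc2a (-1.04) after the combination, none of which was past 2-fold by library totals. Relative to the all-gene median, Fam208a stood 1.25, 1.69 and 1.72 above it in the 3 treatments. Atf7ip stood -1.32, Morc2a -1.15 and Mphosph8 -0.84 from it after ADAR1i-124. With Z22 ADAR1i-124 as the base in place of DMSO, a choice made after seeing the data, none of the 9 was past 2-fold after 5-Aza-CdR or the combination, where 14.0% and 16.2% of genes were. Fam208a was then 1.62-fold and 1.40-fold higher, and Atf7ip 1.76-fold and 1.50-fold. Trim28 stood at 0.937-fold and 0.641-fold, the latter the furthest of the 9 from the base in the combination.

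**Figure D2:**
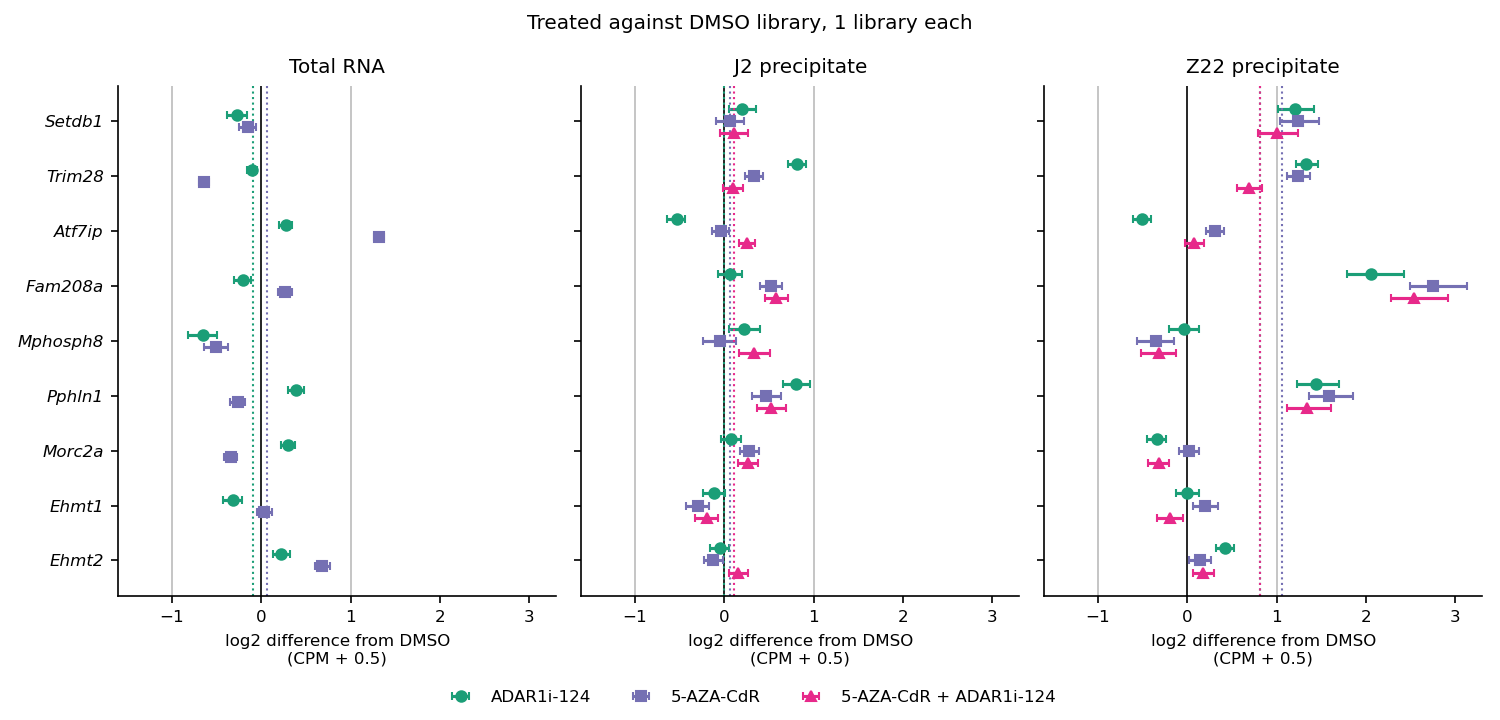
Log2 difference from the DMSO library of the same RNA fraction (x axis) for the 9 genes (y axis), 1 library per condition, with 95% counting intervals; grey lines mark 2-fold and dotted lines the median of all genes for the treatment of that colour. In total RNA Atf7ip alone passes 2-fold, at 1.32 after 5-Aza-CdR, and in Z22 the dotted lines themselves lie at 0.81 to 1.06.

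Some genes of the lists around these 9 were past 2-fold in total RNA after 5-Aza-CdR. Their counts stand beside the share of all genes, 26% (17.0% higher and 8.96% lower). Of the 15 partners of SETDB1 and TRIM28, 3 were past 2-fold and lower, with a median log2 difference of -0.21. Chaf1a and Chaf1b, subunits of the chromatin assembly factor CAF-1, went from 85.9 to 29.6 CPM and from 27.4 to 8.36 CPM, log2 differences of -1.52 and -1.65. Atf7ip2, the paralog of Atf7ip, was the third, with 34 and 17 counts (2.0 and 0.49 CPM). It passed the mean of 1 CPM only through the DMSO library, so that its difference was built into the filter. Of the 6 other H3K9 methyltransferases and HP1 genes, 2 were past 2-fold and lower, with a median of -0.77. These were Suv39h1, the methyltransferase of pericentromeric heterochromatin, at 69.8 and 32.3 CPM, and Cbx5, which encodes HP1α, at 647 and 249.7 CPM in DMSO and 5-Aza-CdR. The J2 library of 5-Aza-CdR held more of Chaf1a, Chaf1b and Suv39h1 than that of DMSO, at 41.1 against 30.2, 15.5 against 10.5 and 23.5 against 18.1 CPM, and less of Cbx5, at 135 against 196.

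Of the 10 genes of DNA methylation, H3.3 deposition and chromatin remodelling, 3 were past 2-fold and lower, and their median was -0.35. Hells, a remodeller that DNA methylation of repeats needs, went from 157 to 44.2 CPM (log2 -1.82), while it stood at 41.0 and 52.5 CPM in J2 and at 17.0 and 65.4 in Z22 of the same labels. Uhrf1, which brings DNMT1 to hemimethylated DNA, went from 171 to 56.8 CPM (log2 -1.58), with 56.4 and 80.8 CPM in J2 and 33.1 and 137 in Z22. Dnmt1, the maintenance methyltransferase that 5-Aza-CdR traps, went from 334 to 165 CPM (log2 -1.01), with 154 and 198 CPM in J2 and 447 and 394 in Z22. Of the 6 H3K9 demethylases, 1 was past 2-fold and higher, with a median of 0.20. It was Kdm4b, at 17.0 and 47.7 CPM. None of the 3 EHMT partners and none of the 5 HUSH-linked genes tested was past 2-fold, with medians of 0.00 and -0.38. Fam208b and Skiv2l2 had the lowest values among the HUSH-linked genes, at -0.75 and -0.62, and Wiz (0.53) and Zfp644 (-0.28) lay furthest from 0 among the EHMT partners.

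After ADAR1i-124, 4 genes of these lists were past 2-fold, where 16.4% of all genes were. Wiz, the zinc finger partner of EHMT1 and EHMT2, was higher, at 39.8 and 85.4 CPM in DMSO and ADAR1i-124. Hdac1 was lower, at 247 and 119.8 CPM, but not past 2-fold with TMM factors (a scaling by edgeR). Also lower were Daxx, an H3.3 chaperone, at 51.8 and 24.4 CPM and the H3.3 gene H3f3a at 239 and 114 CPM. That made 1 of 3 EHMT partners, 1 of 15 SETDB1 and TRIM28 partners and 2 of 10 in the DNA methylation and H3.3 list. None of the other H3K9 methyltransferases and HP1 genes, HUSH-linked genes or H3K9 demethylases was past 2-fold, with medians of -0.41, -0.08 and -0.06. Suv39h1 (-0.49) and Cbx1 (-0.61), Fam208b (-0.20) and Morc3 (0.14), and Kdm4b (0.50) and Kdm4a (-0.44) lay furthest from 0 in these 3 lists.

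Genes that these pathways keep silent were measured by the same counts. Of the 11 germline genes, Dazl alone reached a mean of 1 CPM over DMSO and 5-Aza-CdR in total RNA, with 107 counts after 5-Aza-CdR and 0 in the other 2 libraries. Against the floor of 3 counts in the DMSO library, 0.176 CPM, its 3.10 CPM were at least 17.6-fold higher. Of the 9 two-cell stage and retroviral genes in the table, Syna, a syncytin, was the one that reached it, with 7 and 57 counts, or 0.41 and 1.65 CPM. Dazl and Syna passed that mean only through the 5-Aza-CdR library, so that a difference was built into the filter. The Zscan4 genes held at most 3 counts each in those libraries, too few to show a difference.

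**Figure D3:**
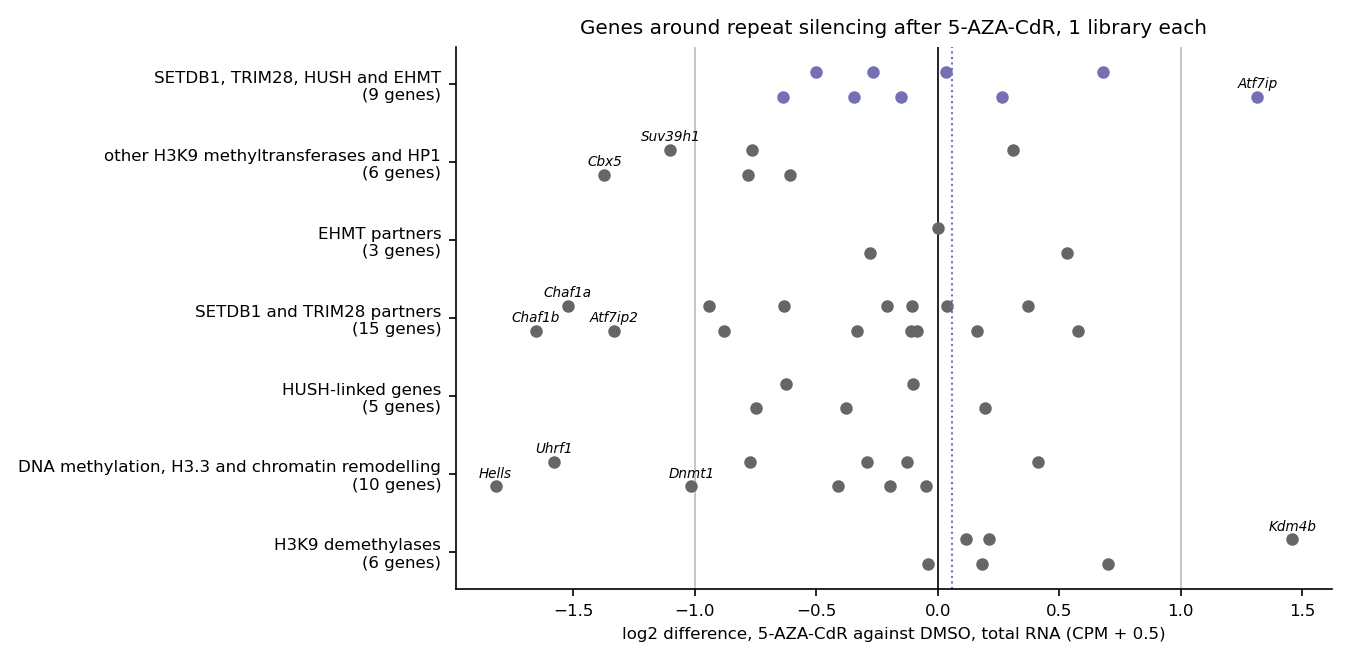
Log2 difference of 5-Aza-CdR against DMSO in total RNA (x axis), 1 point per gene that averaged 1 CPM or more, for the 9 genes (purple) and 6 lists around them (grey); names mark genes past 2-fold, grey lines 2-fold and the dotted line the median of all genes at 0.06. Hells, Chaf1b, Uhrf1 and Chaf1a lie furthest to the left, and Kdm4b and Atf7ip to the right.

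Against IgG, most values of the 9 genes were within 2-fold with either antibody. Of 72 ratios (9 genes in 8 antibody libraries), 66 lay within 2-fold. Of all genes, 22.4%, 10.1%, 18.6% and 25.9% were past 2-fold from IgG in the 4 J2 libraries, in the order above, and 56.7%, 9%, 26.5% and 27.8% in the 4 Z22 libraries. Atf7ip was past 2-fold and higher in J2 of the combination (2.02-fold) and in Z22 of 5-Aza-CdR (2.34-fold). Trim28 in both DMSO precipitates and Fam208a and Pphln1 in Z22 DMSO were past 2-fold and lower, so 3 of these 4 came from the library that stood apart. With TMM factors Atf7ip was past 2-fold in neither J2 of the combination nor Z22 of 5-Aza-CdR, and in Z22 DMSO Atf7ip, Morc2a and Ehmt1 were past 2-fold and higher. Trim28 was then past 2-fold and lower in J2 of DMSO and of the combination but not in Z22 DMSO, and without the 20 largest genes in the totals it was so in Z22 DMSO alone. All of these ratios share 1 IgG library of unstated treatment and carry no replicate error.

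The 2 antibodies were compared over the 4 treatments as pairs, with edgeR's quasi-likelihood test and Benjamini-Hochberg adjustment over all genes. None of the 9 genes passed an adjusted p of 0.05, and 0% of 14366 genes did. An unadjusted p under 0.05 was found for 3052 genes (21.2%), 3 of the 9 among them. DESeq2 called 874 genes, 1 of the 9. Fam208a was lower in Z22 than in J2 in 4 of 4 pairs, by -1.99 to -0.60 on the log2 scale, with a fitted difference of -0.92 (SE 0.25, edgeR adjusted p = 0.128). Without the DMSO pair, 975 genes were called and Fam208a was the 1 of the 9 among them, at -0.62 (SE 0.11, edgeR adjusted p = 0.0181). DESeq2 over all pairs gave -0.91 (adjusted p = 0.0248). With TMM factors Trim28, Atf7ip, Morc2a, Ehmt1 and Ehmt2 were higher in Z22 in 4 of 4 pairs, and Pphln1 was lower in 4 of 4. By library totals Trim28 was lower in Z22 in the DMSO pair (log2 -0.44) and Atf7ip in the combination (-0.02). Pphln1 was then higher in the 5-Aza-CdR pair (0.12). None of these genes passed. The largest fitted differences of these were those of Ehmt1 and Ehmt2, at 0.54 (SE 0.20, edgeR adjusted p = 0.185) and 0.57 (SE 0.20, edgeR adjusted p = 0.177).

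The base composition of the genes moved with this difference. Across 14332 genes, which are not independent replicates, the fitted Z22 to J2 difference had a Spearman rho of 0.577 with the GC content of merged exons and 0.486 without the DMSO pair over 14730 genes. Fam208a had the lowest GC content of the 9 at 36.7%, and 0.714% of 11479 expressed protein-coding genes lay lower. Ehmt2 had the highest at 60.3%. Mphosph8 at 41.3% and Atf7ip at 41.9% were also GC-poor, with 10.6% and 13.0% of those genes lower. Their fitted differences were 0.29 and 0.40 over all pairs, and -0.02 and 0.21 without the DMSO pair. The part of GC content in the results was not tested.

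**Figure D4:**
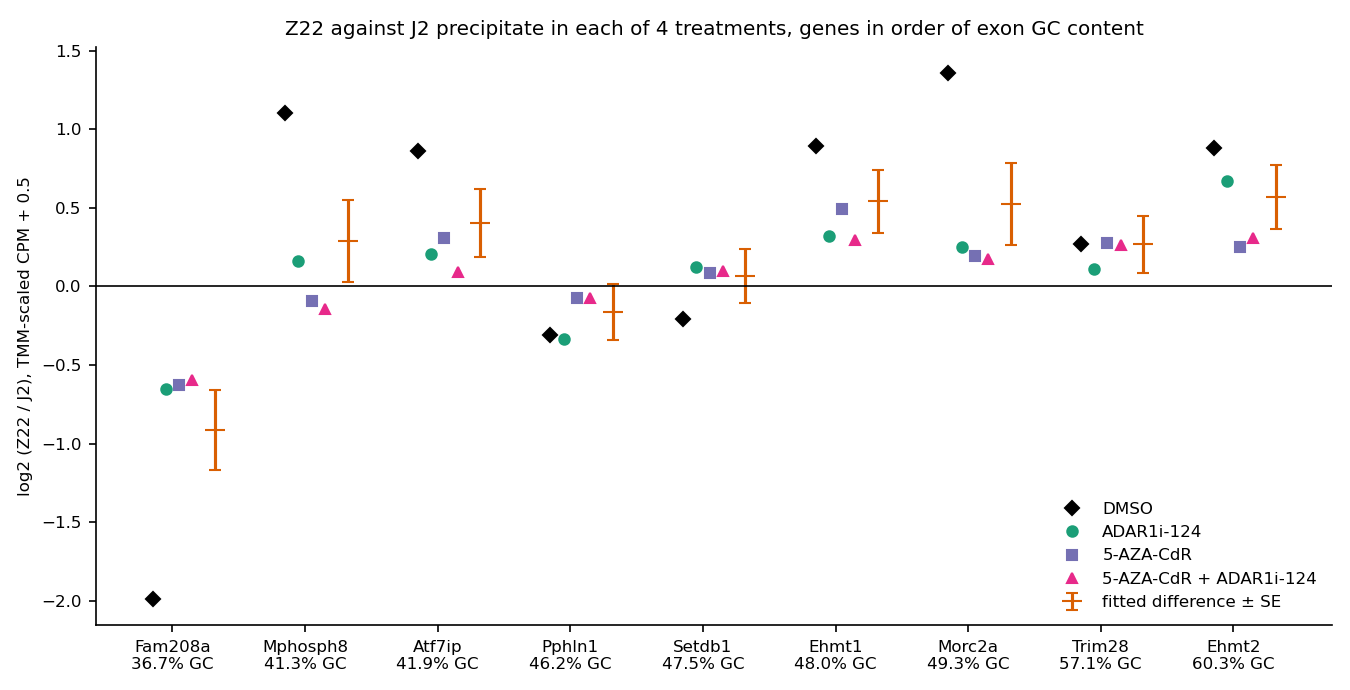
Log2 ratio of Z22 to J2 (y axis, CPM scaled with TMM factors, plus 0.5) in each of the 4 treatments and the fitted difference with its SE, for the 9 genes in order of the GC content of their exons (x axis). Fam208a lies below 0 in all 4 treatments, and the DMSO pair lies furthest from 0 for all but Trim28 and Pphln1.

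Against total RNA, 3 treatment pairs were available for each antibody. In J2, none of the 9 genes passed, where 0.1% of 14988 genes did. Pphln1 came nearest, at -0.59 (SE 0.24, edgeR adjusted p = 0.440), and was below total RNA in 3 of 3 pairs. In Z22, none passed either, where 0.0737% of 14931 genes did, and Fam208a came nearest at -1.23 (SE 0.43, edgeR adjusted p = 0.413). With TMM factors Mphosph8 was higher than total RNA in 3 of 3 pairs with each antibody. Its fitted differences were 0.54 (SE 0.27, edgeR adjusted p = 0.522) in J2 and 0.97 (SE 0.38, edgeR adjusted p = 0.422) in Z22. The J2 DMSO pair stood at 0.01 with TMM factors and at -0.27 by library totals. DESeq2 called 387 and 310 genes in the 2 comparisons and none of the 9. At an unadjusted p under 0.05, edgeR had 1 of the 9 in J2 and 2 in Z22, where 11.1% and 11.3% of all genes were.

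Over the 12 libraries the 9 genes did not form 1 pattern. The likeness of 2 genes was measured as Pearson's r of log2(CPM + 0.5), a description across libraries that share treatments and depth. Z22 DMSO, the library that stood apart, was included, and Setdb1, Trim28, Fam208a and Pphln1 were lowest in it. How far that library sets the values of r was not tested. Among the 36 pairs the highest r was 0.896, of Trim28 and Pphln1, and the lowest -0.542, of Fam208a and Mphosph8. Among 8889 genes that averaged 10 CPM or more, the 3 most similar to Fam208a were Rc3h2 (r = 0.994), Usp3 (0.992) and Gpbp1l1 (0.991). Those most similar to Pphln1 were Ythdf2, Polr2m and Emd, at 0.987 to 0.989, and to Setdb1 Usp6nl, Cbl and Dyrk2, at 0.981 to 0.983. Ehmt1 was nearest to Pkd1, Sugp2 and Ncor1, at 0.912 to 0.975. Atf7ip was nearest to Mmp14 (0.961), Atat1 (0.953) and B4galt3 (0.947). Ehmt2 was nearest to Itpr3, Kdm4b and Taok2, at 0.903 to 0.934. Mphosph8 and Morc2a had the least similar neighbours, with Gm9800, Cfap36 and Gpatch11 at 0.855 to 0.872 and Pprc1, Fgd3 and Acd at 0.827 to 0.863.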

How the data were processed

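The 13 libraries, 1 per condition, came from YUMM1.7 total RNA (Illumina ribosomal RNA depletion kit) and from RNA digested and then precipitated with J2, Z22 or IgG. The authors mapped reads with STAR in snakePipes to mm10 and deposited raw counts per gene. The counting tool and strand setting were not given in the sources used here. Identifiers without version were matched to GENCODE M21 (54495 of 54532, with 37 unmatched). Counts were divided by the table total, and 0.5 CPM was added before log2, so that differences of low genes come out too small. The call was a 2-fold difference in genes that averaged 1 CPM or more in the libraries compared. Samples were grouped by their labels, nothing says that the libraries came from separate cultures, and the p-values of the antibody comparisons measure only the spread between treatment pairs. These used edgeR 4.0.16 (R 4.3.3) with the treatment as a block, TMM factors and a filter on low counts, and DESeq2 1.42.0 as an alternative. On simulated counts with 200 genes changed 4-fold, edgeR found 192 of them among 14366 genes for Z22 against J2. It found 191 among 14988 for J2 against total RNA and 189 among 14931 for Z22 against total RNA. False calls were 10, 12 and 5. The simulation gave all genes the same spread, with no treatment effect and no library that stood apart. It therefore does not show how many real changes these fits would find. GC and soft-masked shares came from the RefSeq FASTA of GRCm38.p6, promoter windows from RefSeq. The members and lists were chosen with earlier results of these data known. Beside the 9 genes, the text names genes of the other lists that passed 2-fold in total RNA or else at most the 2 largest, the 3 most similar genes per member, Adar, Dnmt1 and overlapping genes. Gm42418, Krt1, Krt14, Cd3e, Cd68, Cdh5, Tyr, Tyrp1, Mitf and the Zscan4 genes were named after their values were seen. For Trim28, the most similar genes are not reported here.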

Additional observations from a re-analysis of the deposited data

Results flagged for a closer look

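In the total RNA library of the combination, which no comparison used, Mphosph8 had 94 counts or 75.4 CPM (interval 61.7 to 92.3), above the 47.0 CPM (43.9 to 50.4) of total RNA with DMSO. In that library counts sat with genes on the opposite strand, and Gm16973, which shares 384 exon bases with Mphosph8 on the other strand, had 178 counts there. Setdb1 with 107 counts and Fam208a with 154 counts had intervals that overlapped those of DMSO, and Pphln1 and Ehmt1 had 0 counts.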

How the results depend on the processing

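Each treatment comparison rests on 1 library a side, so its values have no replicate check, and the antibody comparisons on 3 or 4 pairs. In total RNA the count of genes past 2-fold was 1 after 5-Aza-CdR and 0 after ADAR1i-124 under every scaling and pseudocount tried. With a 1.5-fold line it was 3 after 5-Aza-CdR and 1 after ADAR1i-124, and 2 after ADAR1i-124 in J2, where 46.9%, 36.6% and 39.1% of all genes were past it. In Z22 the values depended on the scaling. The median log2 difference of the 9 genes after ADAR1i-124, 5-Aza-CdR and the combination was 0.42, 0.31 and 0.18 by library totals, -0.25, -0.66 and -0.55 with TMM factors, -0.44, -0.76 and -0.68 with DESeq2 size factors, and -0.068, -0.25 and -0.24 with totals without the 20 largest genes. That last scaling left 1, 2 and 1 genes past 2-fold, all higher, and with TMM factors 2 were past it after 5-Aza-CdR, Fam208a higher and Mphosph8 lower. With Z22 ADAR1i-124 as the base, added after seeing the data, the count was 0 after 5-Aza-CdR and 0 after the combination. The all-gene median of J2 in the combination moved from 0.11 to -0.02 with TMM factors. The labels number no replicates, so the pairs are the libraries of 1 treatment, and the treatment was the block. For Z22 against J2, J2 against total RNA and Z22 against total RNA, edgeR called 0, 15 and 11 genes. DESeq2 called 874, 387 and 310, and no filter on low counts 1474, 555 and 253. Library totals alone gave 3 and 4 calls against total RNA, and leaving out the treatment block 0 in both. Leaving out 1 treatment at a time gave 0 to 975, 2 to 388 and 9 to 65 calls. For the first, 975 came without DMSO and 1 without the combination. For the second, 388 came without DMSO and 2 without 5-Aza-CdR. For the third, 65 came without 5-Aza-CdR and 46 without ADAR1i-124. Of the 9 genes, Fam208a was called for Z22 against J2 by DESeq2, with no filter and without DMSO (1 of 9 each), and none of the 9 was called in any other fit of the 3 comparisons. In the order of levels per length, Atf7ip moved from 9th to 5th and Setdb1 from 6th to 9th in DMSO with the longest transcript, the latter with an interval that overlapped its neighbour's. The TMM factors took Hdac1 under 2-fold after ADAR1i-124.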
